A study of Homo sapiens with 4 samples.

Results

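ATF4 and 9 genes of the integrated stress response, ATF3, ATF5, DDIT3, DDIT4, TRIB3, CHAC1, SESN2, CEBPB and VLDLR, were examined in a human lymphoma line with and without disruption of GNA13. The 10 genes were chosen by name, and all 10 were among the 25066 genes with deposited values. NUDUL1 is a human diffuse large B cell lymphoma line of the germinal center B cell-like subtype. The study derived single-cell clones with doxycycline-inducible Cas9 from it and transduced them with Tbxa2r, a Gα13-coupled thromboxane receptor, and both genotypes carried these changes. One genotype expressed a control sgRNA and the other a sgRNA against GNA13, which encodes Gα13, with 1 sgRNA per genotype. Every culture received 10 nM U46619, a stable thromboxane A2 analogue that acts on Tbxa2r, for 24 h, and 2 RNA-sequencing libraries were made per genotype. With no untreated cells among the 4 libraries, the comparison was between genotypes under the agonist and not of the agonist itself.

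In the integrated stress response, the kinases PERK, GCN2, PKR and HRI each phosphorylate the translation factor eIF2α when a cell senses unfolded protein, uncharged tRNA, double-stranded RNA or haem shortage. Translation of most mRNAs then falls, while the mRNA of the bZIP transcription factor ATF4 is translated more, so ATF4 activity is set largely at the level of protein and ATF4 mRNA is an incomplete readout of it. ATF4 pairs with C/EBP proteins and other bZIP factors at C/EBP-ATF response elements of genes for amino acid uptake and synthesis, tRNA charging, redox balance and, when stress persists, cell death. In growing cells mTORC1 can also drive the same amino acid genes through ATF4.

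The control libraries held 29209544 and 31537955 mapped reads, and the GNA13-deficient libraries 30141459 and 29685942. The values are log2 normalized reads per gene, and 3 reads corresponded to a log2 value of 1.56 to 1.69. B cell genes were abundant in every library (MS4A1, CD79A, CD79B, PAX5, CD22 and MME at log2 10.21 to 14.33), whereas the T cell genes CD3D, CD3E and CD2 were listed at 0. In control replicate 2 a single read is also listed as 0, so a 0 there stands for 0 or 1 read. Other T cell and myeloid markers were present in control, among them CD4 at 115 and 175 reads and ITGAM at 125 and 145, given at the end. Of the B cell genes, MS4A1 fell by 0.57 (adjusted p = 0.00477) and BCL6 had lower levels, given at the end. The log2 level of GNA13 mRNA itself was 12.46 and 12.45 in control but 13.10 and 13.11 in GNA13-deficient libraries, a rise of 0.65 (SE 0.05, adjusted p = 0.00214 by limma). This transcript level therefore gave no check of the disruption, the values do not show the edited site, and "GNA13-deficient" stands throughout for what the label states. The reference transcripts GAPDH and ACTB were higher in the GNA13-deficient libraries by 0.49 and 0.37 without passing the test (adjusted p = 0.0502 and 0.205), differences as large as or larger than those of several stress response genes below.

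Short sequences upstream of the members are shown first because ATF4 acts through a defined DNA element. The 1000 bases before the start of each gene's canonical transcript (GRCh37, GENCODE 44) were searched on both strands for the core of the C/EBP-ATF response element, TGATGNAA, which reads TTNCATCA on the other strand. The core was found in 6 of the 10 members and in 2292 of 20163 protein-coding genes (11.4%). The matches are printed on the strand of the gene, 5′ to 3′, with the core in capitals. A match describes letters only and does not show that a factor was bound.
ATF3, chr1:212782071-212782100, plus strand, 14 bases before the start: tataaaaggggTGATGCAAcgctctccaag
ATF3, chr1:212781889-212781918, plus strand, 196 bases before the start: cctccccgaacTTGCATCAccagtgccccc
CHAC1, chr15:41245449-41245478, plus strand, 202 bases before the start: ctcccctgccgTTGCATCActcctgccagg
DDIT3, chr12:57914585-57914614, minus strand, 299 bases before the start: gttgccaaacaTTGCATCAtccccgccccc
DDIT4, chr10:74032725-74032754, plus strand, 935 bases before the start: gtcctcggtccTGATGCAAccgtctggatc
SESN2, chr1:28585722-28585751, plus strand, 289 bases before the start: gtgaagtccctTTTCATCAcgcaaccctaa
VLDLR, chr9:2621338-2621367, plus strand, 431 bases before the start: agcaacgatagTTGCATCAgcgctaactgc

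Of these 7 matches, 6 had the letters TGATGCAA on one strand or the other, and SESN2 alone had TGATGAAA, read as TTTCATCA in the gene's direction. ATF4, ATF5, TRIB3 and CEBPB held no match in the window, which says nothing of sites elsewhere in these genes. The cAMP response element TGACGTCA, which reads the same on both strands, was found in none of the 10 members and in 674 of the 20163 genes (3.3%). The 6 members with a match included both members with an adjusted p under 0.05 by limma as the values were deposited, DDIT4 and SESN2. They also included ATF3 and CHAC1, higher in the libraries labelled GNA13-deficient without passing, and DDIT3 and VLDLR, lower there without passing.

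The libraries labelled GNA13-deficient held more mRNA of a pair of stress-induced inhibitors of mTORC1. DDIT4 (also called REDD1) rose 1.59-fold and SESN2 (Sestrin2) rose 1.29-fold. The other Sestrins, SESN1 and SESN3, were lower, with log2 differences of -1.61 and -1.57. The transcription factor ATF4 was 1.18-fold higher without passing the test, and the pro-apoptotic factor DDIT3 (CHOP) was at 0.71 of the control level, also without passing it. All 10 members were tested, and 2 of them (20%) passed an adjusted p of 0.05, both higher, beside 29.7% of the 16945 genes tested overall. By direction, 13.1% of all genes tested were called higher and 16.6% lower. With only 10 members, this share is near that of all genes and gives no result about the members as a group. An unadjusted p under 0.05 by limma was seen in 7 members and in 7128 of the 16945 genes. The number of members called depended on the scaling. With quantile normalization 5 members were called higher (ATF3, DDIT4, TRIB3, CHAC1 and SESN2), and with each library centred on its median 5 were again called higher, ATF4 in place of CHAC1. Under these scalings 31.2% and 36.8% of all genes were called, and 16.2% and 25.4% were called higher. With any 1 library left out, a genotype has a single library, so such fits cannot settle a call. In each of them 7 members had a difference above 0.

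**Figure D1:**
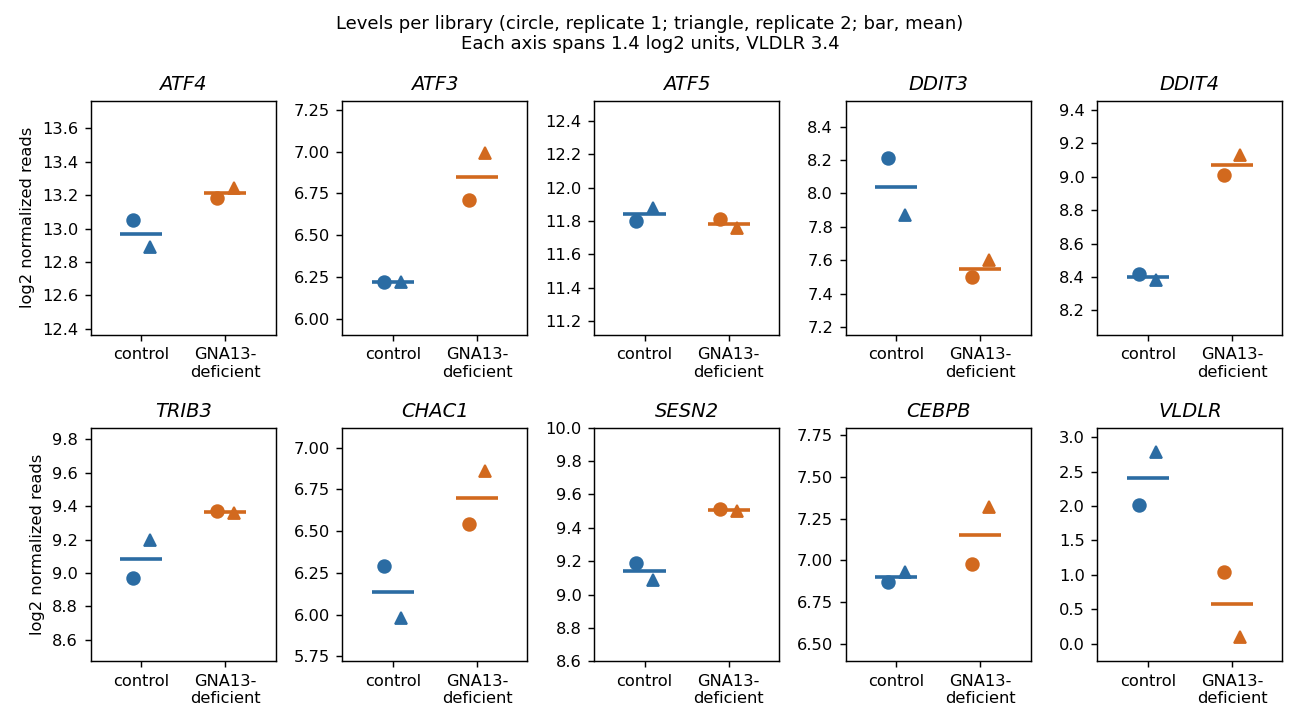
Log2 normalized reads of the 10 members in each library, one panel per gene, with control libraries in blue and GNA13-deficient libraries in orange (circle, replicate 1; triangle, replicate 2; bar, mean of 2 libraries). The vertical axes do not start at 0 and have one span, except the wider axis of VLDLR; the genotypes touch only in ATF5.

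Without regard to a test, the GNA13-deficient pair lay above the control pair in 7 members and below it in 2, and the genotypes overlapped in 1. Among all genes tested, 31.3% lay apart with GNA13-deficient higher and 34% with it lower. The median log2 difference was 0.27 over the 10 members and -0.02 over all genes tested, and the median size of the difference regardless of sign was 0.43 and 0.35. In RNA from bulk cells, a change in every cell and a change in the share of cells that express a gene cannot be told apart. Nothing in the labels says that the 2 libraries of a genotype came from separate cultures, so p values measure only the spread between these libraries, which may be technical.

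To compare levels between genes, recovered reads were divided by exon length and library total (RPKM). ATF4 was the most abundant member, with a mean of 108 RPKM over the 4 libraries (93.8 to 116), at the 98th percentile of the 14902 tested genes with a known length. ATF5 followed at 40.3 RPKM (37.5 to 42.1). A middle group of DDIT4 (6.87), SESN2 (6.03), TRIB3 (5.91) and DDIT3 (5.64 RPKM) could not be ordered, since the ranges of neighbouring genes over the 4 libraries overlapped. CEBPB had 2.31, CHAC1 1.38 and ATF3 0.767 RPKM, and the last 2 of these touched, with a lowest CHAC1 value of 0.989 and a highest ATF3 value of 0.994. VLDLR, at 0.00695 RPKM, was at percentile 3.1.

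ATF4 (chromosome 22, 39915700 to 39918688, plus strand) had log2 values of 13.05 and 12.89 in control and 13.18 and 13.24 in GNA13-deficient libraries. Both GNA13-deficient libraries lay above both controls, with a gap of 0.13 between the nearest libraries of the genotypes. The difference of 0.24 had a 95% interval of 0.05 to 0.43 and an adjusted p of 0.0709 by limma, outside the threshold. Reads of ATF4 could be shared with its 4 annotated pseudogenes, ATF4P1 to ATF4P4, since the treatment of multiply mapped reads was not given. The call changed with the setting. ATF4 passed under 4 of 15 alternatives, among them at adjusted p values of 0.0248 with a filter at the median level, 0.0303 with a filter of 10 reads and 0.0130 with each library centred on its median. With quantile normalization its difference was 0.095 (adjusted p = 0.402).

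ATF3, a stress-induced bZIP factor that ATF4 activates, was at 6.22 in both control libraries and at 6.71 and 6.99 in the GNA13-deficient libraries (log2). The reads behind these values were 73 and 76 against 102 and 118. The genotypes did not overlap, but the 2 GNA13-deficient libraries differed by more than the controls did, and the difference of 0.63 (SE 0.19) had an adjusted p of 0.0692. ATF3 passed under 4 of its 14 alternatives, at differences of 0.63 to 1.01 and adjusted p values from 0.0155.

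ATF5, a bZIP factor whose mRNA is also translated under eIF2α phosphorylation, was the member with the least movement. It had log2 values of 11.80 and 11.88 in control and 11.81 and 11.76 in GNA13-deficient libraries, so the genotypes overlapped. The interval of its difference, -0.21 to 0.09, was the narrowest among the members. The exons of ATF5 share 565 bases (19.5%) with NUP62 on the opposite strand, and reads of the pair can be told apart only if counting used the strand, which was not given.

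CEBPB, a C/EBP partner of ATF4, had log2 values of 6.87 and 6.93 in control and 6.98 and 7.32 in GNA13-deficient libraries. The groups lay apart by only 0.05, the second GNA13-deficient library was the high one, and the interval of the difference ran from -0.22 to 0.72. A rise of the size seen in DDIT4 was thus within the interval of CEBPB. Its opposite-strand neighbour CEBPB-AS1 shares 231 of its exonic bases (12.6%).

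DDIT3, the bZIP factor CHOP that ATF4 induces in prolonged stress, went in the other direction from ATF4. Its log2 values were 8.21 and 7.87 in control and 7.50 and 7.60 in GNA13-deficient libraries, from 292 and 238 reads against 177 and 180. Both control libraries were above both GNA13-deficient libraries, and the 2 controls differed from each other by more than the 2 GNA13-deficient libraries did. The difference of -0.49 had a 95% interval of -0.90 to -0.08 and an adjusted p of 0.0764 by limma. It was called lower under 1 of 14 alternatives, at an adjusted p of 0.0281 with the filter of 10 reads. DDIT3 exons share 355 bases (27.2%) with MARS1 on the opposite strand and 105 bases (8.0%) with an unnamed protein-coding gene on its own strand. The methionyl-tRNA synthetase transcript itself, listed as MARS, was named after its values were seen. It was higher in the GNA13-deficient libraries by 0.30 (adjusted p = 0.0139 by limma), the reverse of DDIT3.

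**Figure D2:**
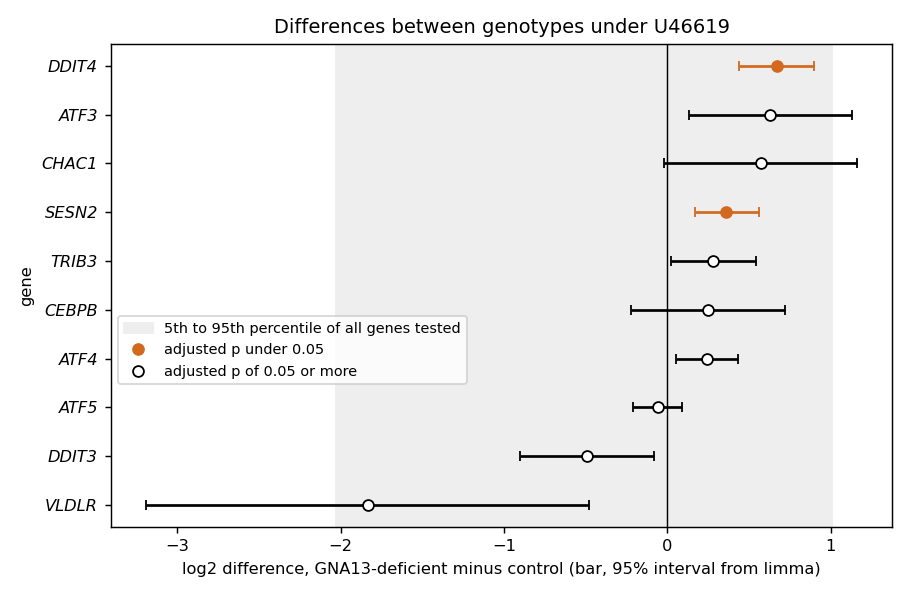
Log2 difference between genotypes (GNA13-deficient minus control) for the 10 members, ordered by size, with 95% intervals from limma; filled orange points passed an adjusted p of 0.05. The grey band spans -2.03 to 1.01, the 5th to 95th percentile of all genes tested, and every member's difference lies in it.

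DDIT4 encodes an inhibitor of mTORC1 that is induced by ATF4 in stress and by other factors in hypoxia and DNA damage. It lies at chromosome 10, 74033678 to 74035794, plus strand, with 3 exons. Its log2 values were 8.42 and 8.38 in control libraries and 9.01 and 9.13 in GNA13-deficient libraries, from 337 and 339 reads against 503 and 522. The nearest libraries of the genotypes lay 0.59 apart, several times the distance between libraries of one genotype. The difference was 0.67 (SE 0.09, 95% interval 0.44 to 0.90, adjusted p = 0.00728 by limma). As deposited, DDIT4 had the largest rise of the 10 members, but the wider intervals of ATF3 and CHAC1 overlapped its own. With quantile normalization ATF3 (1.01) and CHAC1 (0.96) were above DDIT4 (0.81). DDIT4 kept its call in 11 of 15 alternatives. The 4 alternatives without the call were those that left out 1 library, with differences of 0.61 to 0.73 and adjusted p values of 0.0762 to 0.0982, and in each of these no gene of the 16945 passed.

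SESN2 encodes a leucine-binding protein that holds mTORC1 in check when leucine is scarce, and its transcription is raised by ATF4. It lies at chromosome 1, 28586029 to 28609002, plus strand, with 10 exons. Its log2 values were 9.19 and 9.09 in control and 9.51 and 9.50 in GNA13-deficient libraries, from 575 and 555 reads against 711 and 673. Both GNA13-deficient libraries were above both controls by 0.31 or more. The difference was 0.36 (SE 0.07, 95% interval 0.17 to 0.56, adjusted p = 0.0231). The call was kept in 9 of 15 alternatives. It was lost without the filter on low values (adjusted p = 0.0630), without the variance trend (0.0762), and with each library left out (0.0976 to 0.139). The difference was 0.36 without the filter or the trend, and 0.31 to 0.41 with a library left out.

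TRIB3, a pseudokinase that ATF4 and CHOP induce and that in turn restrains ATF4, had log2 values of 8.97 and 9.20 in control and 9.37 and 9.36 in GNA13-deficient libraries. The 2 GNA13-deficient libraries were nearly equal and lay above both controls, whose own distance was close to the difference between genotypes. That difference was 0.28 (SE 0.10, adjusted p = 0.0986), and it passed under 3 of 15 alternatives.

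CHAC1, a glutathione-degrading enzyme induced through ATF4, had log2 values of 6.29 and 5.98 in control and 6.54 and 6.86 in GNA13-deficient libraries. These rested on 77 and 64 reads against 91 and 108. The groups lay apart, yet the difference of 0.57 (SE 0.23) had a 95% interval of -0.02 to 1.16 and an adjusted p of 0.130. It passed under 1 of 14 alternatives, quantile normalization, at a difference of 0.96.

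VLDLR, a lipoprotein receptor that the PERK-ATF4 branch raises in stressed liver cells, was close to undetected. Its reads were 4 and 7 in control and 2 and 1 in GNA13-deficient libraries, so both GNA13-deficient libraries were below the floor of 3 reads. Summed over libraries, the ratio of control to GNA13-deficient was 3.49 with an exact 95% counting interval of 0.923 to 19.5, which includes no difference. A difference was not detectable at this depth, and the log2 difference of -1.83 from limma (adjusted p = 0.0569) rests on these few reads. The interval covers counting error only, since reads without molecular identifiers are not independent molecules.

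**Figure D3:**
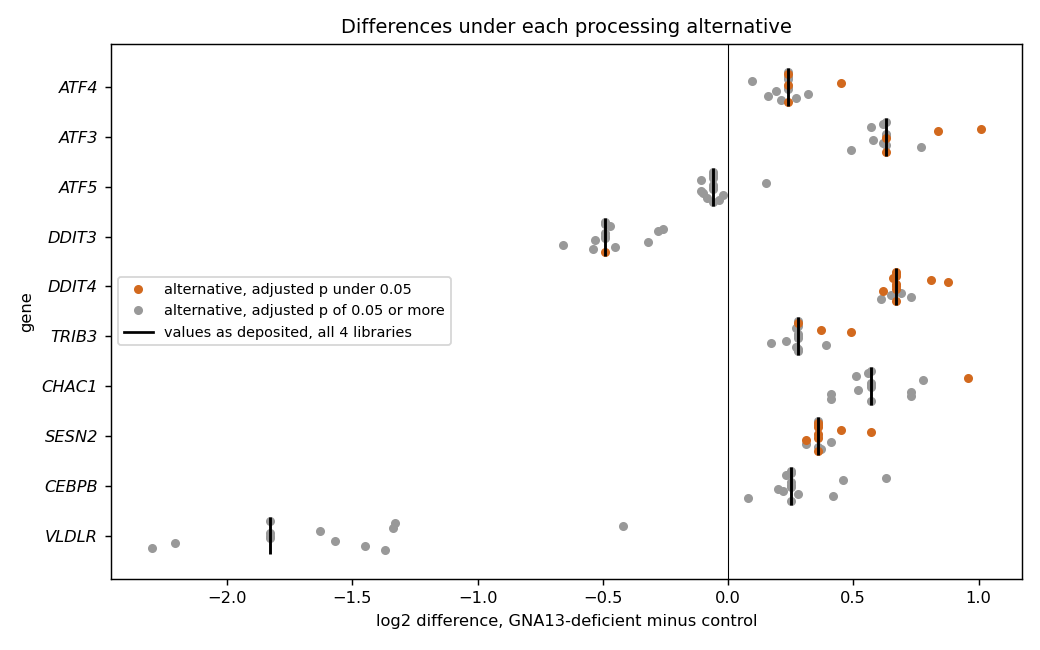
Log2 difference between genotypes for each member under each processing alternative (points; orange where the adjusted p was under 0.05) and with the values as deposited (black lines). DDIT4 and SESN2 hold most of the orange points, and ATF5 is the only member whose difference takes both signs.

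The kinases and regulators upstream of ATF4 were described next, from a list of 19 genes that were all tested. Of these, 3 were called higher and 7 lower (52.6% of the list called, beside 29.7% of all genes), with a median log2 difference of -0.05. EIF2AK4, the amino acid sensor GCN2, had log2 values of 10.63 and 10.48 in control and 10.00 and 10.07 in GNA13-deficient libraries, a fall of 0.52 (adjusted p = 0.00956). EIF2AK3, the endoplasmic reticulum sensor PERK, fell by 0.28 (adjusted p = 0.0209), and the stress-induced eIF2α phosphatase subunit PPP1R15A (GADD34) fell by 0.48 (adjusted p = 0.0132). KIAA0141 (DELE1), which relays mitochondrial stress to HRI, fell by 0.54 (adjusted p = 0.00373). The eIF2 and eIF2B subunits moved both ways, with EIF2B2 (0.43), EIF2S3 (0.34) and EIF2S2 (0.25) called higher and EIF2B5 (-0.30) called lower, all named after their values were seen. The balance of calls turned with centring but not with quantile normalization. It was 3 higher and 7 lower as deposited and 3 higher and 8 lower after quantile normalization. Centring each library on its median, which moved the median of all genes to 0.18, gave 8 higher and 3 lower. Centring also ended the calls of EIF2AK3 (-0.075, adjusted p = 0.328) and PPP1R15A (-0.27, adjusted p = 0.0684). Quantile normalization kept both (-0.31 and -0.38, adjusted p = 0.0137 and 0.0252).

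A further regulator, IMPACT, which opposes activation of GCN2 by GCN1, was picked out after its values were seen because of their size. It had 377 and 400 reads in control and 24 and 27 in GNA13-deficient libraries, a log2 difference of -3.86 (SE 0.18, adjusted p = 0.00102). All other genes of this list lay between -0.54 and 0.45.

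Of 15 bZIP relatives of ATF4, 14 were tested, and CEBPA was listed at 0 in every library. Among them 2 were called higher and 1 lower (21.4% called, beside 29.7% of all genes), with a median difference of 0.10. Quantile normalization left 2 higher and 1 lower, and after centring 6 were called higher and 1 lower. BATF3, a relative of the AP-1 partner BATF, had the largest difference of the list and was picked out after its values were seen. It had 10 and 20 reads in control and 67 and 58 in GNA13-deficient libraries, a rise of 2.21 (SE 0.41, adjusted p = 0.0179). JDP2, a repressor of AP-1 sites, had log2 values of 8.06 and 8.39 in control and 8.91 and 8.77 in GNA13-deficient libraries, a rise of 0.61 (adjusted p = 0.0326). ATF6B, an endoplasmic reticulum-anchored relative of ATF6, fell by 0.62 (adjusted p = 0.00223). CEBPG, the common C/EBP partner of ATF4, was at 10.55 and 10.65 in control and 10.79 and 10.90 in GNA13-deficient libraries, with a difference of 0.24 that equalled that of ATF4 and did not pass (adjusted p = 0.0611). Like ATF4, it passed with the filters at the median level and of 10 reads (adjusted p = 0.0312 and 0.0347) and with centring (0.0170).

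Paralogues of the members were compared with them, since Sestrins, Tribbles and CHAC enzymes occur in families. Of 8 paralogues, 7 were tested and 6 called, 2 higher and 4 lower (85.7% called, beside 29.7% of all genes). SESN1, a Sestrin that p53 and FOXO factors induce, had log2 values of 9.11 and 9.22 in control and 7.49 and 7.61 in GNA13-deficient libraries, a fall of 1.61 (SE 0.10, adjusted p = 0.00158), whereas SESN2 rose by 0.36. SESN3, named after its values were seen, fell by 1.57 (adjusted p = 0.00258). TRIB1 fell by 0.80 (adjusted p = 0.00216) beside a difference of 0.28 in TRIB3 that did not pass. CHAC2, the constitutive glutathione-degrading enzyme, rose by 0.80 (SE 0.08, adjusted p = 0.00370) from 523 and 499 reads to 838 and 851. The paralogues' 2 higher and 4 lower calls were the same in number after quantile normalization and after centring.

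**Figure D4:**
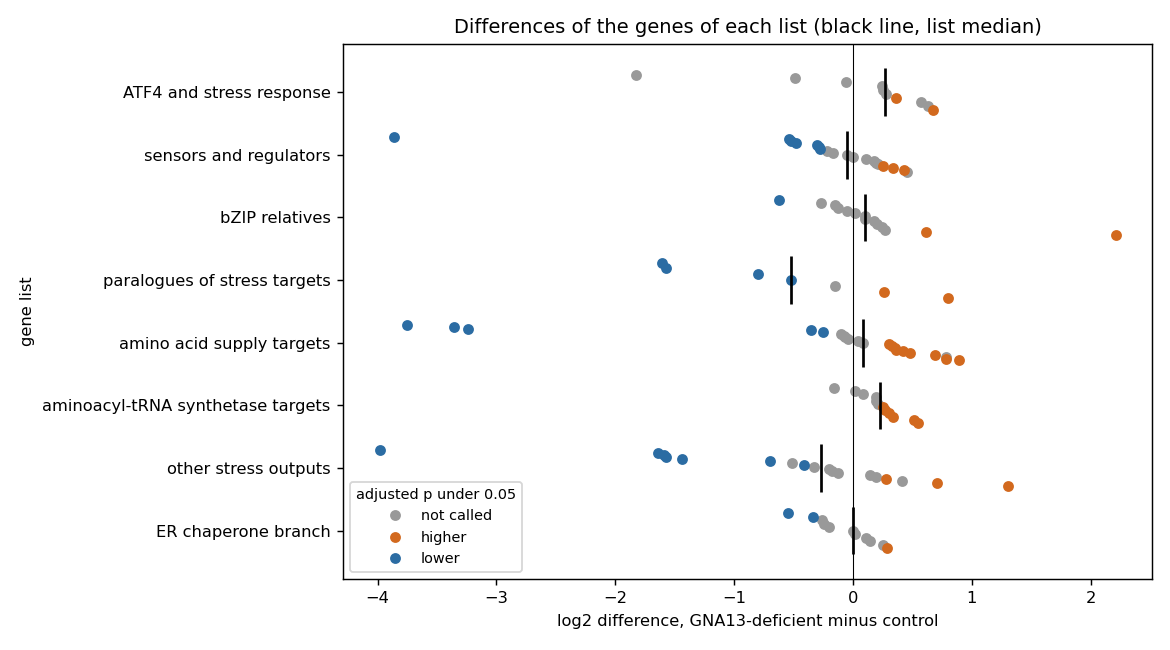
Log2 difference between genotypes for every tested gene of the 10 members and of 7 related lists, one row per list (orange, called higher; blue, called lower; grey, not called; black line, list median). The aminoacyl-tRNA synthetases lie mostly to the right of 0, and 5 single genes lie to the left of -3.

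The amino acid genes that ATF4 is known to activate moved in both directions. Of 21 genes, all tested, 9 were called higher and 5 lower (66.7% called, beside 29.7% of all genes), with a median difference of 0.08. PHGDH, the entry enzyme of serine synthesis, had log2 values of 12.06 and 12.21 in control and 12.98 and 13.07 in GNA13-deficient libraries, a rise of 0.89 or 1.86-fold (SE 0.07, adjusted p = 0.00238). The neutral amino acid carrier SLC1A4 rose by 0.78 (adjusted p = 0.00198) and the alanine transaminase GPT2 by 0.69 (adjusted p = 0.00316). ASNS, asparagine synthetase and a standard ATF4 target, was at 11.31 and 11.36 in control and 11.19 and 11.29 in GNA13-deficient libraries. Its groups lay apart by little, and its difference of -0.10 did not pass (adjusted p = 0.294). ASNS reversed sign to 0.11 after centring each library on its median, again without passing. The list's calls were 6 higher and 5 lower after quantile normalization and 11 higher and 3 lower after centring.

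Within the same list, 3 genes fell far more than any other and were picked out after their values were seen. PYCR1, the last enzyme of proline synthesis, had 502 and 601 reads in control and 35 and 43 in GNA13-deficient libraries, a log2 difference of -3.75 (SE 0.19, adjusted p = 0.00109). ALDH1L2, a mitochondrial folate enzyme, had 65 and 63 reads against 5 and 7 (-3.36, adjusted p = 0.00400). CBS, which joins serine to homocysteine, had 136 and 161 reads against 14 and 16 (-3.24, adjusted p = 0.00218). Other genes of the same routes, also named after their values were seen, went differently. The proline enzyme ALDH18A1 had a difference of 0.08 that did not pass. The mitochondrial folate enzymes SHMT2 and MTHFD2 were higher by 0.35 and 0.33 (adjusted p = 0.0232 and 0.0188 by limma).

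Genes for tRNA charging gave the most uniform list, as the values were deposited. Of 12 aminoacyl-tRNA synthetases, 6 were called higher and none lower (50% called, beside 29.7% of all genes). A difference above 0 was seen in 11 of them, beside 8143 of all 16945 genes, and the median was 0.23. AARS, which charges alanine, had log2 values of 12.97 and 12.99 in control and 13.53 in both GNA13-deficient libraries, a rise of 0.55 (adjusted p = 0.00335). YARS rose by 0.51 (adjusted p = 0.00575) and EPRS by 0.34 (adjusted p = 0.0173), and EPRS lost its call after quantile normalization (0.17, adjusted p = 0.101). The direction of calls depended on the scaling in part, with 3 called higher and 1 lower after quantile normalization and 11 higher and none lower after centring. After quantile normalization 9 of the 12 had a difference above 0, with a median of 0.11 beside 0.07 over all genes. By limma, 10 of the 12 had an unadjusted p under 0.05, as did 7128 of the 16945 genes tested.

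Other outputs of the stress response, including death and autophagy genes, had more calls lower than higher as deposited. Of 22 genes, 18 were tested, with 3 called higher and 7 lower (55.6% called, beside 29.7% of all genes) and a median of -0.27. NUPR1, GDF15 and FGF21 were listed at 0 in every library, and STC2 in all but 1. After centring, 5 were called higher and 6 lower, with 9 differences on each side of 0 and a median of -0.06, and after quantile normalization 2 higher and 8 lower. GADD45A, a growth arrest gene, had log2 values of 9.59 and 9.51 in control and 8.10 and 7.83 in GNA13-deficient libraries, a fall of 1.59 (adjusted p = 0.00210). BCL2L11, which encodes the pro-apoptotic BH3 protein BIM, fell by 1.57 (adjusted p = 0.00125), and KLHL24 fell by 1.44 (adjusted p = 0.00102). Several genes of this list are also targets of p53 or FOXO factors, so it is not specific to ATF4. ADM2, a calcitonin-family peptide induced by ATF4, was picked out after its values were seen, with 300 and 364 reads in control against 18 and 22 (-3.98, adjusted p = 0.00129). In the other direction, FAM129A rose by 1.30 (adjusted p = 0.00114) and the translation repressor EIF4EBP1 by 0.71 (adjusted p = 0.0111), both also named after their values were seen.

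The endoplasmic reticulum chaperone branch, controlled mainly by ATF6 and XBP1, was read as a neighbouring pathway. Of its 11 genes, 1 was called higher and 2 lower (27.3% called, beside 29.7% of all genes), with a median of 0.00. The balance turned to 3 higher and 1 lower after centring (median 0.21) and was 2 higher and 3 lower after quantile normalization. HYOU1, a chaperone of the HSP110 class, fell by 0.55 (adjusted p = 0.00634) and DNAJB9 by 0.34 (adjusted p = 0.0402), while the secreted factor MANF (listed as ARMET) rose by 0.29 (adjusted p = 0.0191). DNAJB9 lost its call after quantile normalization (-0.24, adjusted p = 0.118) and centring (-0.13, adjusted p = 0.347). The defining chaperone of this branch, HSPA5 (BiP), was at 14.37 and 14.49 in control and 14.43 and 14.48 in GNA13-deficient libraries, and it was named outside the rule. Its groups overlapped, with a difference of 0.02 (adjusted p = 0.863).

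Some genes outside the B cell lineage moved with genotype too. Of 10 T cell and myeloid markers, CD3D, CD3E and CD2 were listed at 0, CD3G was above 0 in 1 library, and 6 were tested. ITGAM had 125 and 145 reads in control and 3 and 4 in GNA13-deficient libraries, and CD4 had 115 and 175 against 12 and 5. LYZ had 83 in each control against 11 and 17, and CD8A, close to the floor of 3 reads, had 5 in each control against 0. CSF1R, with 15 and 16 reads against 13 and 4, and CD14, with 1 and 2 against 0, did not pass (adjusted p = 0.283 and 0.462 by limma). The germinal center factor BCL6 had log2 values of 10.75 and 10.89 against 8.23 and 8.44, a fall of 2.49 (adjusted p = 0.00085). Their part in the differences of the stress response genes was not tested.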

How the data were processed

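RNA from NUDUL1 cells was sequenced by the authors from poly(A) stranded libraries, 2 per genotype. Reads were aligned to hg19 with STAR, and HTSeq is named in the submitters' processing notes; the annotation, the use of strand and the normalization were not given in the sources used here. The deposited values, normalized reads on the log2 scale as the authors computed them, were used as they stand, beside a deposited linear row of mapped read totals. Whole reads were recovered from the step of low values. Of values up to 400 reads, 99.99% to 100% were whole within the rounding of the log2 values plus 0.01 read. At higher values that rounding can exceed 1 read.

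Genotypes were compared with limma 3.58.1 under R 4.3.3, by a linear model with genotype as its term and moderated variances that followed the mean level (2 residual degrees of freedom), on 16945 genes above 0 in at least 2 libraries, with Benjamini-Hochberg adjusted p values over all of them and a threshold of 0.05. The method was tested on simulated data. Members and gene lists were chosen with earlier results of these data known, so they are not independent of them. Named genes were the 10 members, the 3 called genes with the largest difference of each list at or above the median level (8.13), and ASNS, PPP1R15A, EIF2AK3, EIF2AK4 and CEBPG; others are stated where named. Exon lengths (87.9% of genes tested) and sequences came from GRCh37 with GENCODE 44. The 15 alternatives comprised 3 filters, 2 pseudocounts, 2 scalings, a replicate block, 2 variance priors, voom weights and leaving out each library. One filter, 10 reads or more per gene in 2 libraries, was added after the data were seen. No set test was run. A marker on the B cell list is not reported here.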

Additional observations from a re-analysis of the deposited data

How the results depend on the processing

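The count of genes called, 5037, was 1999 without a filter and 2718 without the variance trend, and it was 0 to 0 when each library was left out in turn (3 libraries, with the lone library assumed to vary like the other genotype), where 5257 to 5600 genes and 2 to 4 members had an unadjusted p under 0.05. Members called higher numbered 2 as deposited (13.1% of all genes called higher), 1 without a filter (3.25%) and 1 without the variance trend (5.82%). They were 4 of 5 tested with a filter at the median level (26.3%), 5 with quantile normalization (16.2%) and 5 with median centring (25.4%). With the filter of 10 reads, added after seeing the data, 4 of 9 tested were called higher (20.1%). One member, DDIT3, was called lower with the filter of 10 reads, where 43.8% of all genes were called in either direction. Without a filter 7.97% of all genes were called. The lists then numbered 3 (sensors), 1 (bZIP relatives), 5 (amino acid supply), 3 (synthetases) and 0 (chaperone branch). Without the variance trend (16% of all genes called) they numbered 2, 1, 6, 2 and 0, with 6 for other stress outputs. With a library left out every list was at 0. Median centring gave 7 bZIP relatives and 11 synthetases (36.8% of all genes called). The chaperone branch had 6 calls with the median filter (48.2% of all genes called) and 5 with quantile normalization (31.2%). It had 5 with voom weights (29.6%) and 6 with the filter of 10 reads (43.8%). ATF5 reversed to 0.15 and ASNS to 0.11 with median centring. The cause of these shifts was not tested. Fits with 3 libraries have fewer residual degrees of freedom. Median centring and quantile normalization moved the median of all genes to 0.18 and 0.07, and the share of calls that were higher from 44% to 69.1% and 51.8%.

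Libraries with the same replicate number deviated together (correlation 0.453 across 8473 genes), but with 2 pairs and no source that pairs them they share only a number. With the replicate block, 6616 genes (39%) were called by limma, and 18% of all genes were called higher. The calls included 3 members, all higher (ATF4 added, adjusted p = 0.0349), CEBPG (adjusted p = 0.0148), 10 synthetases and 7 genes of the chaperone branch. The 9 members other than ATF5 kept their direction under every alternative in which they were tested. Depth limits VLDLR, with 14 reads over all libraries, and leaves ATF3 and CHAC1 at 64 to 118 reads per library.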

Other observations

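The core of the C/EBP-ATF response element was also searched in the same 1000-base window of the related genes, as a description with no test. It was found in 8 of 22 other stress outputs (36.4%), 7 of 21 amino acid supply genes (33.3%), 4 of 12 aminoacyl-tRNA synthetases (33.3%), 4 of 19 sensors and regulators (21.1%), 1 of 11 chaperone genes (9.1%), 1 of 15 bZIP relatives (6.7%) and 0 of 8 paralogues, beside 11.4% of 20163 protein-coding genes.

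Genes with the core went in both directions between genotypes. PHGDH, GPT2, AARS and JDP2, with a match at 947, 394, 180 and 9 bases before the start, rose by 0.89, 0.69, 0.55 and 0.61. PYCR1 and ALDH1L2, with a match at 82 and 967 bases, had differences of -3.75 and -3.36. ASNS held matches at 61 and 879 bases and had a difference of -0.10 that did not pass.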
